A study of Rattus norvegicus with 60 samples.

Results

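The genes described here are 43 interferon-stimulated genes of the rat, a list of transcripts that cells make more of after they sense an interferon. Each was represented by its probe set with exactly 1 annotated gene symbol, or by the one with the highest mean where there were several, which gave values for 38 of the 43 among 18166 genes with such a probe set. Oas3, Ddx58, Eif2ak2, Parp12 and Bst2 had no probe set of that kind and were not analysed here. The 38 fell into 9 sub-families by function, and their expression was compared between knees with an induced bleed, the opposite knees of the same rats and knees of sham-treated rats, and between the lymph nodes of the same legs.

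All 20 rats had haemophilia A, the bleeding disorder caused by lack of coagulation factor VIII, so the sham group shared that disease and no group without it was compared. A bleed was induced in the left knee of 11 rats, and 9 other rats had a sham procedure; every tissue was taken 24 h later. Intra-articular tissue and the lymph node behind the knee (popliteal), into which the lower leg drains, came from both sides of the bled rats (11 arrays for each tissue and side) and from the right side of the sham rats (7 knee and 9 node arrays). How the bleed was induced, and the strain, allele, age and sex of the rats, are not given in the sources used here. On each bled rat the bled knee was always the left one, so each comparison with the bled side was also one of left with right, and effects of the blood and of the injury that caused it cannot be told apart.

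Interferons are secreted proteins that warn cells of viruses and of misplaced nucleic acids. Type I interferons signal through the receptor pair Ifnar1 and Ifnar2 and the kinases Jak1 and Tyk2 to a transcription factor complex that contains Stat2 and Irf9 and binds the interferon-stimulated response element (ISRE) in the promoters of its targets. Interferon gamma, the type II interferon, signals through Ifngr1 and Ifngr2 and acts at the gamma-activated site (GAS), and the Gbp and Irg GTPases are classical targets of it. The products of these genes block viral replication, sense foreign RNA or tune the signal itself, and synovial tissue holds macrophages, fibroblasts and endothelium that can all respond.

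Promoters are shown for some of the members named in the results below, as examples. RefSeq promoters of 300 bases (build GRCr8, 250 bases before to 50 bases after the gene start) were found for 29 of the 38 measured members, with 2 promoters for Gbp1. The core of the ISRE was searched as GAAANNGAA and that of the GAS as TTCNNNGAA, each on both strands and with matches of the same motif allowed to overlap; in no member promoter did a match of one motif overlap a match of the other. The ISRE core was present in 21 of the 30 member promoters (70%) and in 9.71% of all 33469 promoters of that length in the table. The GAS core was present in 7 of the 30 (23.3%) and in 8.87% of all. A match of these letters is a description and not a measured binding site. In the sequences below, which run 5′ to 3′ in the direction of the gene, capitals mark matches of the ISRE core. Gbp5 (chr2:233910749-233911048, plus strand), Irf7 (chr1:205799974-205800273, minus strand), Cmpk2 (chr6:48802600-48802899, plus strand) and Gbp2 (chr2:234005477-234005776, plus strand) were lower in bled than in contralateral knees, while Ifit3 (chr1:241527076-241527375, plus strand) and Oasl (chr12:47356243-47356542, minus strand) were not.
Gbp5: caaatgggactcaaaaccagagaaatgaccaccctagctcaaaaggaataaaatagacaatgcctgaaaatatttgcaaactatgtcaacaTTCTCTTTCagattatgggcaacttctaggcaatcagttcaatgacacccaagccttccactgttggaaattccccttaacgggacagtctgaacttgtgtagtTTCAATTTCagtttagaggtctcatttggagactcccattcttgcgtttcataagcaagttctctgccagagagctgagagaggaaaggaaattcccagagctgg
Irf7: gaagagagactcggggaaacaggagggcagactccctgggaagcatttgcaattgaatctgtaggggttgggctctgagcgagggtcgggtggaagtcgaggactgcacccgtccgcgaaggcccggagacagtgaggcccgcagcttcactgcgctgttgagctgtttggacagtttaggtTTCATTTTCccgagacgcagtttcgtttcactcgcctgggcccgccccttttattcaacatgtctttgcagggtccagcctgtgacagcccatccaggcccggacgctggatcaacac
Cmpk2: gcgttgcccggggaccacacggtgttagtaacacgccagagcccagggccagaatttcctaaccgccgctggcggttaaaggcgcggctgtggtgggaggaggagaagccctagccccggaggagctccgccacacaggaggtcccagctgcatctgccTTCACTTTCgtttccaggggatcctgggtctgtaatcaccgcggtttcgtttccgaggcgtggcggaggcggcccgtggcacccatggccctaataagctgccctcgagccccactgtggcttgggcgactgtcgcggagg
Gbp2: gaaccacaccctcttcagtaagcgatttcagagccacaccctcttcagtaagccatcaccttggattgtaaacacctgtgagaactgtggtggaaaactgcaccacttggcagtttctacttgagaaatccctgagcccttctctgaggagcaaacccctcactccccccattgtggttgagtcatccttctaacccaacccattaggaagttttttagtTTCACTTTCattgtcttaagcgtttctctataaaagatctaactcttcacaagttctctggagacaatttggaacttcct
Ifit3: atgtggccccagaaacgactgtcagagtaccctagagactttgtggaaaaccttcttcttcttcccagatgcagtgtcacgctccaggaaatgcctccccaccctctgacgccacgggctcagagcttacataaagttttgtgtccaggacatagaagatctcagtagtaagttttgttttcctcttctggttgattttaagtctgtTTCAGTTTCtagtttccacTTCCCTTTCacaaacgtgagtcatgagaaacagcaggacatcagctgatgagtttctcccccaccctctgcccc
Oasl: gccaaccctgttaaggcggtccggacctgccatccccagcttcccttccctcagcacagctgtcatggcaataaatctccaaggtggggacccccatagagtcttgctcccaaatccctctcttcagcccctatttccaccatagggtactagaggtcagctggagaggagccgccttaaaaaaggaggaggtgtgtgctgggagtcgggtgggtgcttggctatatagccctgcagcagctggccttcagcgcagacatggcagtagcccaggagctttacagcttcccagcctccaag
The matches of Gbp5 began 159 and 55 bases before the gene start, that of Irf7 68, that of Cmpk2 91 and that of Gbp2 30 bases before it, and those of Ifit3 43 and 24 bases before it. The window of Oasl held neither motif. Over all promoters found, 17 of 21 of members called lower in bled than in contralateral knees held an ISRE core. Of those of members not called, 4 of 9 did. Mx1, Herc6, Irf1 and Parp9 were called lower and held none. No promoter was found for Ifit1, Ifit2, Mx2, Oas2, Isg15, Usp18, Rtp4, Dhx58 or Zbp1. Whether the element goes with the fall was not tested.

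Values are RMA expression on the log2 scale, and array medians lay between 5.64 and 5.94. The labelled tissues were told apart by their markers: Prg4, the lubricin gene of the synovial lining, had a mean of 13.1 in sham knees and 7.66 in sham nodes, and Ms4a1, which encodes the B cell surface protein CD20, one of 4.98 in sham knees and 11.4 in sham nodes. Among the sham arrays 3 stood apart from their groups by their correlation with the mean of the others: the knee of rat C5 at 0.965, where all others reached at least 0.984, and the nodes of rats C9 and C2 at 0.965 and 0.984, where all others reached at least 0.993. Calls that were lost without them are named beside the results. A probe set was called when its adjusted p was under 0.05 (limma, Benjamini-Hochberg over all 36685 probe sets), and differences are given ± SE.

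In the bled knees most interferon-stimulated genes were lower than in the opposite knees of the same rats. Of the 38 measured, 26 fell, 1 rose and 11 were not called; of all probe sets, 15.2% were called lower and 19.5% higher in this comparison, and of the 18166 genes with a symbol 23.3% and 25.9%. The median difference over the 38 was −0.58, against 0.00 over all probe sets, and 35 of the 38 differences were below 0. The size of the fall ranged from 1.18-fold for Parp9 to 3.53-fold for Gbp5. In 5 members, Gbp5, Ifit2, Gbp2, Ifi44 and Ifi27, every bled knee lay below every contralateral knee, which held for 5.61% of all probe sets. These are bulk tissues, in which fewer cells of a type and less RNA per cell cannot be told apart.

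**Figure D1:**
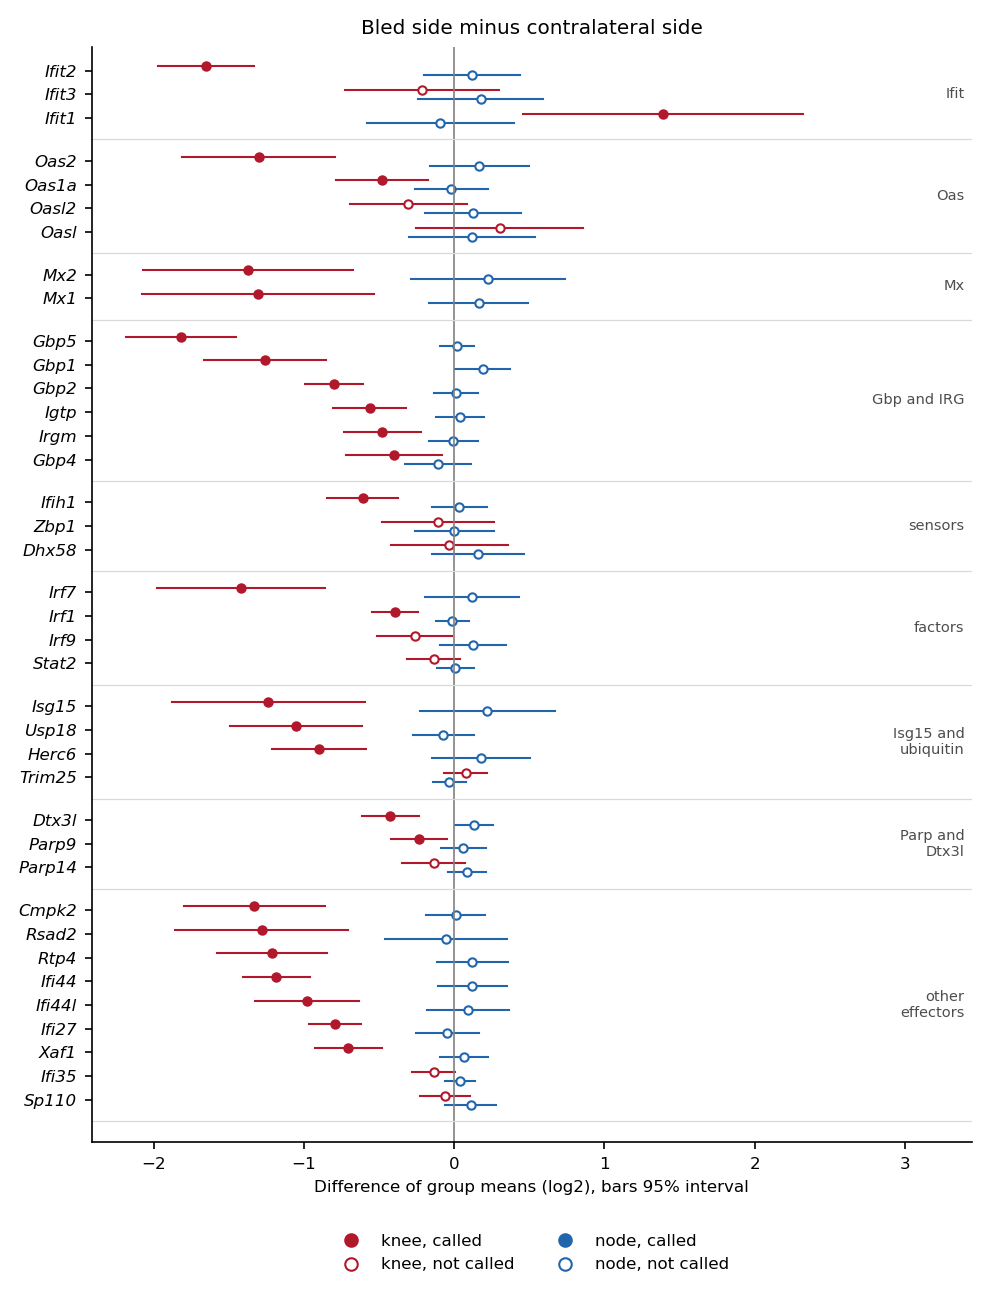
Difference of group means between the bled and the contralateral side (log2, horizontal axis) for the 38 measured members by sub-family, in the knee (red) and in the popliteal node (blue), n = 11 arrays per group. Bars are 95% intervals and filled points were called. In the knee 26 members lie to the left of 0 with a filled point and only Ifit1 has one to the right, while no node point is filled.

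All 6 measured GTPases of the Gbp and Irg families, which attack the vacuoles of intracellular microbes and help to assemble inflammasomes, fell. Gbp5, an activator of the NLRP3 inflammasome, ranged from 6.39 to 7.89 in the bled knees (median 7.18), from 8.30 to 9.59 in the contralateral knees (median 9.06) and from 7.90 to 9.18 in the sham knees (median 8.15). The bled knees thus lay below both other groups without overlap. The difference from the contralateral side was −1.82 ± 0.18 (adjusted p = 7.24e-10), with a 95% interval of −2.19 to −1.45, and it was lower in 11 of 11 rats. Gbp2, which coats pathogen vacuoles, ranged from 5.98 to 6.73 in the bled knees (median 6.42), from 6.88 to 7.52 in the contralateral (median 7.22) and from 6.61 to 7.34 in the sham knees (median 7.03). It fell by 0.80 ± 0.09 on the log2 scale without overlap between the sides, although the bled range reached into the sham range. Gbp1 fell by 1.26 ± 0.20, Igtp (Irgm3 of the mouse) by 0.56 ± 0.12, Irgm by 0.48 ± 0.13 and Gbp4 by 0.40 ± 0.16. Each of these except Gbp4, which was lower in 10 rats and had an adjusted p of 0.0448, was lower in all 11 rats. The call of Gbp4 was lost in 16 of 39 other settings, with an adjusted p of up to 0.086. Gbp4 was dim, with means of 5.07, 5.48 and 5.28 in the bled, contralateral and sham knees, below the lowest array median of 5.64. The mean of Gbp1 in the bled knees (5.33) lay below it too. The promoters of Gbp5, Gbp4, Gbp2 and Gbp1 lie near each other on chromosome 2, and all 7 promoters of the 6 genes held an ISRE core.

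The Ifit genes, whose products bind viral RNA and hold back its translation, did not move together. Ifit2 ranged from 7.85 to 9.18 in the bled knees (median 8.18), from 9.24 to 10.62 in the contralateral (median 9.85) and from 9.03 to 10.03 in the sham knees (median 9.50). It was lower in every bled knee than in any contralateral knee, with a difference of −1.65 ± 0.16 (adjusted p = 2.81e-10). Ifit3 differed by −0.21 ± 0.25 and was not called. Ifit1 was the 1 member that rose, by 1.39 ± 0.46 (adjusted p = 0.0157), in 10 of 11 rats. Its bled knees ranged from 4.54 to 7.83 (median 5.60) and its contralateral knees from 3.22 to 7.35 (median 3.73), so the groups overlapped; rat K9 was highest in both. It was the 1 member with every group mean below the lowest array median of 5.64, and its SD in the knee groups (1.03 to 1.23) was the widest of all members. Its call was lost when dim probe sets were left out, since it was then not tested, and with the mean of the skeletal muscle markers as a covariate (1.22, adjusted p = 0.0522).

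Both Mx genes, which encode dynamin-like GTPases that trap viral nucleocapsids, fell. Mx2 ranged from 5.60 to 8.86 in the bled knees (median 7.26), from 7.16 to 9.56 in the contralateral (median 8.86) and from 7.13 to 9.56 in the sham knees (median 8.66). These ranges overlapped widely, yet Mx2 was lower on the bled side of all 11 rats (−1.37 ± 0.34, adjusted p = 0.00157), and rat K8 had the lowest value on both sides. Mx1 fell by 1.31 ± 0.38 on the log2 scale, also in 11 of 11 rats.

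In the 2′-5′ oligoadenylate synthetase family the 2 measured Oas genes fell and the 2 Oasl genes were not called. The Oas enzymes switch on RNase L when they meet double-stranded RNA. Oas2 ranged from 5.07 to 6.84 in the bled knees (median 6.0), from 5.90 to 8.07 in the contralateral (median 7.34) and from 5.74 to 8.12 in the sham knees (median 6.88). The ranges overlapped, and it was lower on the bled side of all 11 rats (−1.30 ± 0.25, adjusted p = 6.87e-05). Oas1a fell by 0.48 ± 0.15 on the log2 scale. Oasl2 had means of 9.23 ± 0.32 (SD, n = 11), 9.54 ± 0.47 (n = 11) and 9.21 ± 0.64 (n = 7) in the bled, contralateral and sham knees. Its side difference was −0.31 ± 0.19 (adjusted p = 0.248), and it was called lower with rat as a fixed replicate block (adjusted p = 0.0232). Oasl, an enhancer of RNA sensing in humans, ranged from 6.64 to 8.32 in the bled knees (median 7.41), from 6.13 to 8.84 in the contralateral (median 7.20) and from 5.66 to 7.49 in the sham knees (median 6.51). Its side difference of 0.30 ± 0.27 lay within the spread of the groups.

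Of the 3 measured nucleic acid sensors, Ifih1, which encodes the double-stranded RNA sensor MDA5, fell. It ranged from 8.12 to 8.77 in the bled knees (median 8.44), from 8.49 to 9.43 in the contralateral (median 9.05) and from 8.39 to 9.52 in the sham knees (median 8.85), and was lower on the bled side of 11 of 11 rats (−0.61 ± 0.12, adjusted p = 6.71e-05). Dhx58, the gene of its partner LGP2, had means of 7.32 ± 0.45 (SD, n = 11) in the bled, 7.36 ± 0.49 (n = 11) in the contralateral and 7.02 ± 0.47 (n = 7) in the sham knees, and the sides differed by −0.03 ± 0.19 with a 95% interval of −0.42 to 0.36. Zbp1, a sensor of Z-form nucleic acids, differed by −0.11 ± 0.18. Neither of the latter was called.

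Irf7, the factor that amplifies type I interferon production, fell the most of the transcription factors. It ranged from 7.09 to 9.19 in the bled knees (median 8.0), from 8.35 to 10.10 in the contralateral (median 9.63) and from 7.77 to 10.47 in the sham knees (median 8.97). The side difference was −1.42 ± 0.27 (adjusted p = 7.71e-05), and although the ranges overlapped, Irf7 was lower on the bled side of 11 of 11 rats. Irf1, a factor induced by interferon gamma, fell by 0.39 ± 0.08 on the log2 scale. Stat2 and Irf9, which act together in the type I response, were not called: Stat2 differed by −0.14 ± 0.09 and Irf9 by −0.26 ± 0.12 (adjusted p = 0.102). Irf9 was nonetheless lower in all 11 rats, and it was called with rat as a fixed replicate block (adjusted p = 0.00304).

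Isg15, the ubiquitin-like protein gene, and 2 of its partners fell together in the knee. Isg15 ranged from 5.17 to 7.11 in the bled knees (median 5.90), from 5.84 to 8.59 in the contralateral (median 7.48) and from 5.59 to 8.22 in the sham knees (median 6.95). Its difference was −1.24 ± 0.31 (adjusted p = 0.0019), with overlapping ranges and a lower value on the bled side of all 11 rats. Usp18, which removes Isg15 and dampens receptor signalling, fell by 1.05 ± 0.22 on the log2 scale at the probe set used and by 1.15 ± 0.30 at its other one. Herc6, the Isg15 ligase of the mouse, fell by 0.90 ± 0.15, whereas the ubiquitin ligase gene Trim25 differed by 0.08 ± 0.07 and was not called. In the ADP-ribosyltransferase group the ubiquitin ligase gene Dtx3l ranged from 7.48 to 8.19 in the bled knees (median 8.07), from 8.02 to 8.75 in the contralateral (median 8.36) and from 7.97 to 8.64 in the sham knees (median 8.15). It fell by 0.42 ± 0.09 on the log2 scale, in 10 of 11 rats, and its partner Parp9 by 0.23 ± 0.09 (adjusted p = 0.0422, not called in 16 of 40 other settings), while Parp14 differed by −0.13 ± 0.10.

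Of the 9 measured other effectors 7 fell. Cmpk2, a mitochondrial nucleotide kinase gene, ranged from 5.85 to 7.63 in the bled knees (median 6.33), from 7.08 to 9.37 in the contralateral (median 7.81) and from 7.02 to 8.12 in the sham knees (median 7.46). It was lower on the bled side of all 11 rats, by 1.33 ± 0.23 on average (log2 scale, adjusted p = 1.75e-05). Rsad2, whose product viperin makes a chain-terminating nucleotide, fell by 1.28 ± 0.28, Rtp4 by 1.21 ± 0.18, Ifi44 by 1.18 ± 0.11, Ifi44l by 0.98 ± 0.17, Ifi27 by 0.79 ± 0.08 and the apoptosis-linked gene Xaf1 by 0.70 ± 0.11. Ifi35 (−0.14 ± 0.07) and Sp110 (−0.06 ± 0.08) were not called.

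**Figure D2:**
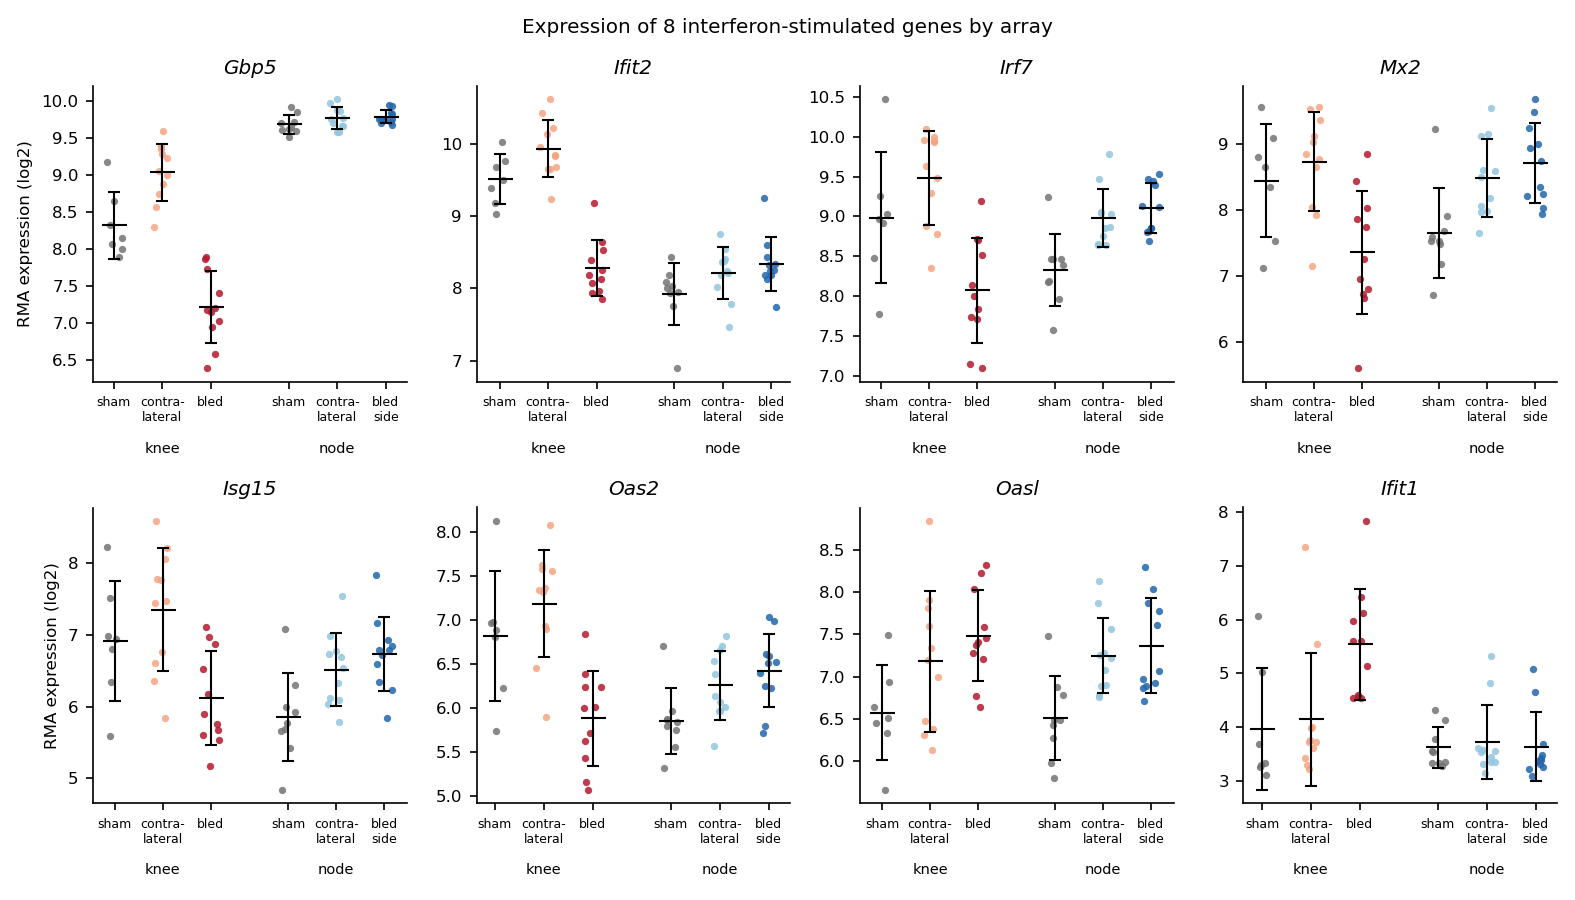
Expression (RMA, log2, vertical axis) of 8 members in each array of the 6 groups, with the group mean and SD in black; the vertical axes differ between panels and do not start at 0. Gbp5 and Ifit2 show bled knees below all contralateral knees, Irf7, Mx2, Isg15 and Oas2 show overlapping ranges with lower bled knees, and Oasl and Ifit1 do not fall.

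Seen rat by rat, the fall was present in each animal. The median over the 38 genes of a rat's difference between its bled and its contralateral knee ran from −1.15 in rat K2 to −0.38 in rat K9, and between 27 (K9) and 35 of the 38 genes were lower on the bled side of any 1 rat. Altogether 22 members were lower in the bled knee of all 11 rats. The same medians for the nodes ran from −0.23 in rat K6 to 0.28 in rat K1, on both sides of 0. The share of all probe sets lower in each rat, or in all 11, is not given here. The counts of members lower per rat and in all 11 rats are therefore descriptions only.

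Other cell types moved between the same knees, and their part in the fall was not tested. The 11 measured neutrophil markers all rose and their summed level (log2 of the summed values) rose from 9.99 to 11.8 in the contralateral to 12.1 to 13.9 in the bled knees, without overlap. All 12 adipocyte markers fell, with a summed level of 14.9 to 15.4 in the contralateral and 12.4 to 13.9 in the bled knees. Of 10 endothelial markers 9 fell (13.3 to 13.9 against 12.6 to 13.2), and of 12 fibroblast and synovial lining markers 8 fell and 1 rose (15.5 to 15.9 against 15.2 to 15.6). The 12 markers of monocytes and macrophages included 8 that rose and 2 that fell (14.1 to 14.7 against 14.9 to 15.4), and of 10 markers of plasmacytoid dendritic cells, the main source of type I interferon in blood, 6 rose and 1 fell (11.3 to 11.6 against 11.7 to 12.3). The plasmacytoid list holds Tlr7 and Irf8, and Irf8 is active in myeloid cells more widely. The rise of that list therefore does not single out plasmacytoid cells. Of 11 T cell markers 10 rose and 1 fell. Their summed level overlapped (12.2 to 12.7 against 11.8 to 12.6), and its median was lower in the bled knees (12.1) than in the contralateral (12.3). Of 10 B cell markers 4 rose and none fell (9.19 to 9.77 against 9.66 to 10.3), and of 9 red cell markers 1 fell. The 9 skeletal muscle markers were all below 0 on the bled side (median difference −2.07), but only 1 was called. Their summed level varied widely, from 9.74 to 15.9 in the contralateral and 9.35 to 15.6 in the bled knees. With the mean of the skeletal muscle markers as a covariate, 25 members remained lower.

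Other genes of the pathway, listed by their step, moved in both directions. Of the 67 measured, 29 rose and 9 fell between the bled and the contralateral knee. Over all genes with a symbol, 25.9% were called higher and 23.3% lower in that comparison. None of the 9 measured interferon genes was called; Ifng differed by 0.08 ± 0.07 and Ifnb1 by −0.13 ± 0.09, and both had means below 5 in both groups, under every array median. All 5 measured receptor genes rose: Ifngr2 by 1.19 ± 0.06, Ifnar1 by 0.79 ± 0.07, Ifngr1 by 0.63 ± 0.08, the interferon lambda receptor gene Ifnlr1 by 0.56 ± 0.13 and Il10rb by 0.51 ± 0.07. Of 8 signal transduction genes 6 rose, among them the inhibitors Socs3 (2.39 ± 0.16) and Ptpn2 (1.49 ± 0.07) and the kinase gene Jak2 (1.42 ± 0.08), and Jak1 fell by 0.18 ± 0.06 on the log2 scale.

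Genes that induce interferon also rose for the most part, 7 of 9, with the RNA receptor gene Tlr7 at 1.68 ± 0.16 and its chaperone Unc93b1 at 1.12 ± 0.10. The other 2 of these fell: Tlr3, a receptor of double-stranded RNA, by 0.80 ± 0.14 and Mavs, the adaptor of the RNA sensors, by 0.50 ± 0.08 on the log2 scale. Of 7 other regulatory factors 3 rose, including Irf8 (1.76 ± 0.13) and Irf5 (1.04 ± 0.10), both active in myeloid cells, and 1 fell. The 29 measured other interferon targets were split, with 8 higher, 5 lower and 16 not called. This split is close to the shares over all genes with a symbol (25.9% higher and 23.3% lower). Ciita, the activator of MHC class II genes, rose by 1.71 ± 0.19, the lysosomal reductase gene Ifi30 by 1.48 ± 0.10 and the antiviral membrane protein gene Ifitm1 by 1.22 ± 0.11. Tnfsf10, which encodes the death ligand TRAIL, fell by 4.50 ± 0.22 on the log2 scale, from a mean of 10.2 to 5.67, and the T cell chemokine gene Cxcl9 by 1.66 ± 0.17, with no overlap between the groups in either.

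**Figure D3:**
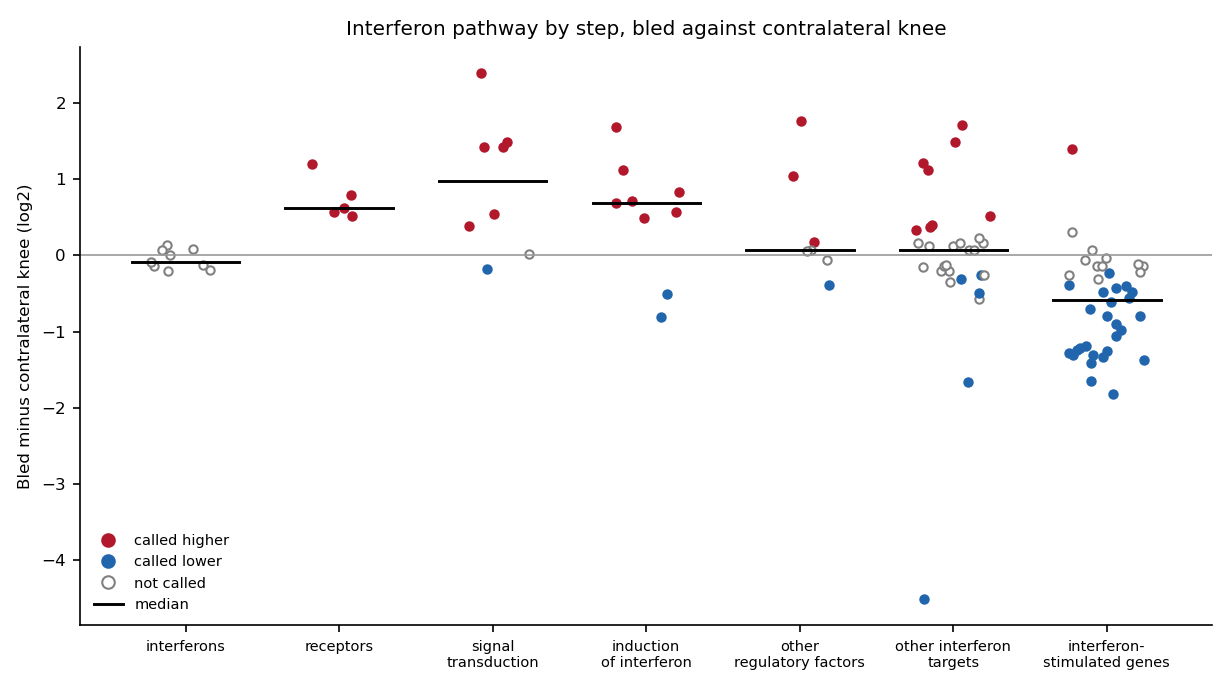
Difference between bled and contralateral knees (log2, vertical axis; n = 11 arrays per group) of 67 measured pathway genes by step and of the 38 members in the last column, each point 1 gene and the black line the median of the step. All 5 receptor genes lie above 0, the 9 interferon genes lie near 0 and uncalled, and 26 members are called lower.

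Against the sham knees, which came from other rats, the bled knees showed a smaller fall. Of the 38 members 18 fell and 2 rose, when 18.8% of all probe sets were called lower and 19.9% higher, and the median difference was −0.42 (−0.05 over all probe sets). Over genes with a symbol, 23.2% were called lower and 27.3% higher. These 18 were all among the 26 that were lower than on the contralateral side; the 2 comparisons share the bled arrays. Ifit2 differed from sham by −1.23 ± 0.18 (adjusted p = 1.04e-06), Gbp5 by −1.11 ± 0.20, Mx2 by −1.09 ± 0.39, Rtp4 by −0.98 ± 0.20, Cmpk2 by −0.95 ± 0.26 and Irf7 by −0.91 ± 0.31. Members lower than contralateral but not called against sham included Rsad2 (−0.23 ± 0.32), Mx1 (−0.78 ± 0.43), Isg15 (−0.80 ± 0.36, adjusted p = 0.0777) and Usp18 (−0.54 ± 0.24). The 2 members higher than in sham were Ifit1 (1.57 ± 0.52, adjusted p = 0.0153) and Oasl (0.91 ± 0.31, adjusted p = 0.0187). Among the 67 measured pathway genes 37 were higher and 7 lower than in sham, 1 of the latter being the interferon gene Ifna2 (−0.36 ± 0.13, adjusted p = 0.0301), led by Tnfsf10 (−4.09 ± 0.25), Socs3 (2.53 ± 0.18), Irf8 (2.13 ± 0.15) and Ifitm1 (2.00 ± 0.12). In 3 members, Gbp5, Ifi44 and Ifi27, all bled knees lay below all sham knees, which held for 5.11% of all probe sets.

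A single sham knee moved these counts. The array of rat C3 had the highest value of its group in 35 of the 38 members, and without it 13 members were lower and 4 higher, with Mx2 (−0.90, adjusted p = 0.0764) and Irf7 (−0.67, adjusted p = 0.0758) no longer called. Mx2 was not called without rat C5 either (−0.98, adjusted p = 0.0637). Without the sham knee of rat C7, which was lowest in 25 members, 20 were lower, Isg15 (−1.02, adjusted p = 0.0233) and Mx1 (−1.10, adjusted p = 0.0353) among them, and Ifit1 was the only one higher, with Oasl at 0.76 (adjusted p = 0.0581).

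The contralateral knees were not called different from the sham knees in any member, while 0.984% of all probe sets were higher and 0.831% lower. Of the 38 differences 37 were above 0, with a median of 0.23, and 8 members had an unadjusted p under 0.05 in the direction of the contralateral knee. The largest was that of Rsad2, with a contralateral mean of 7.91 ± 0.83 (SD, n = 11) and a sham mean of 6.86 ± 0.64 (n = 7), a difference of 1.05 ± 0.32 (adjusted p = 0.0846). Gbp5 differed by 0.71 ± 0.20 (adjusted p = 0.0661), Ifit3 by 0.76 ± 0.28, Oasl by 0.60 ± 0.31 and Gbp1 by 0.58 ± 0.23. Without the sham knee of rat C3, Gbp5 (0.86, adjusted p = 0.0184) and Gbp1 (0.78, adjusted p = 0.0436) were called higher. Of the 29 other interferon targets 5 were higher in contralateral than in sham knees and none lower: Ifitm1 (0.78 ± 0.12, adjusted p = 0.000317), Ccl5 (0.66 ± 0.16), Tap1 (0.52 ± 0.11), Cd274 (0.47 ± 0.11) and Psmb9 (0.38 ± 0.09). None of the 9 interferon genes was called in this comparison.

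In the popliteal nodes no difference between the sides was called. None of the 38 members and none of the 36685 probe sets (0%) was called between the bled-side and the contralateral node (limma), and 2 members, Dtx3l (0.13 ± 0.06) and Gbp1 (0.19 ± 0.09), had an unadjusted p under 0.05. Of the 38 differences 29 were above 0 and 9 below, with a median of 0.07. The 2 genes that fell most in the knee lay close together here: Gbp5 ranged from 9.67 to 9.95 in the bled-side nodes, from 9.58 to 10.02 in the contralateral and from 9.51 to 9.92 in the sham nodes, with medians of 9.76, 9.76 and 9.65. Ifit2 ranged from 7.74 to 9.25, from 7.46 to 8.75 and from 6.89 to 8.43 in the same order, with medians of 8.25, 8.24 and 8.0. Ifit1 stayed dim in the nodes, with means of 3.64 ± 0.64 (SD, n = 11), 3.73 ± 0.69 (n = 11) and 3.63 ± 0.38 (n = 9), and Cmpk2, Ifih1 and Dtx3l had bled-side means of 7.83, 8.87 and 8.46 beside sham means of 7.64, 8.75 and 8.34. The largest side difference was 0.23 ± 0.25 for Mx2, and no 95% interval over the 38 members reached beyond −0.58 or 0.74.

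Against sham nodes, a minority of the interferon-stimulated genes were higher on the bled side. Of the 38 members 8 rose, none fell and 30 were not called, when 1.91% of all probe sets were called higher and 2.34% lower, and the median difference was 0.24 (−0.03 over all probe sets). Over genes with a symbol, 3.02% were called higher and 2.46% lower. Mx2 ranged from 7.95 to 9.68 in the bled-side nodes (median 8.75), from 7.65 to 9.55 in the contralateral (median 8.50) and from 6.72 to 9.23 in the sham nodes (median 7.53). The sham node of rat C1 stood at 9.23, within the range of the bled-side nodes, and the difference from sham was 1.07 ± 0.27 (adjusted p = 0.0184). Irf7 ranged from 8.69 to 9.53 in the bled-side nodes (median 9.12), from 8.64 to 9.79 in the contralateral (median 8.87) and from 7.57 to 9.24 in the sham nodes (median 8.39), a rise of 0.78 ± 0.16 (adjusted p = 0.00665). Isg15 ranged from 5.84 to 7.83 in the bled-side nodes (median 6.79), from 5.79 to 7.55 in the contralateral (median 6.54) and from 4.84 to 7.08 in the sham nodes (median 5.78), and rose by 0.88 ± 0.23 (adjusted p = 0.027). In all 3 genes the groups overlapped, and rat C1 had the highest sham node. Means in bled-side, contralateral and sham nodes were 7.37, 7.25 and 6.51 for Oasl, 9.18, 9.05 and 8.44 for Oasl2, 7.96, 7.80 and 7.41 for Dhx58, 7.50, 7.49 and 7.23 for Gbp2, and 6.42, 6.25 and 5.85 for Oas2. On the bled side Ifit3 rose by 0.86 ± 0.22, Oasl by 0.85 ± 0.22, Oasl2 by 0.74 ± 0.16, Dhx58 by 0.55 ± 0.16 and Gbp2 by 0.27 ± 0.08. The call of Dhx58 was lost in 17 of 41 other settings (adjusted p up to 0.0954). That of Gbp2 was lost in 11 of 41 (up to 0.168) and that of Isg15 in 6 of 41 (up to 0.119). By sub-family these were 2 of 4 Oas genes, 1 each of the Ifit, Mx, Gbp, sensor, factor and Isg15 groups, and none of the 9 other effectors or of the 3 genes of the ADP-ribosyltransferase group. Ifit2 (0.42 ± 0.17) and Oas2 (0.57 ± 0.17, adjusted p = 0.0503) were not called, and Oas2 was with rat as a random replicate block (adjusted p = 0.0477).

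The contralateral nodes showed 4 of the same 8 genes higher than sham, and none lower, with 2.22% of all probe sets called higher and 2.81% lower. Over genes with a symbol, 3.71% were called higher and 3.03% lower. The 4 were Oasl (0.74 ± 0.22), Irf7 (0.66 ± 0.16), Oasl2 (0.61 ± 0.16) and Gbp2 (0.26 ± 0.08), and both comparisons use the same 9 sham arrays. On this side the calls of Oasl and Gbp2 were each lost in 16 of 41 other settings (adjusted p up to 0.135 and 0.402). That of Oasl2 was lost in 3 of 41 and that of Irf7 in 1 of 41. Mx2 differed by 0.84 ± 0.27 (adjusted p = 0.06; 0.0488 with rat as a random replicate block), Ifit3 by 0.69 ± 0.22 (adjusted p = 0.0579) and Isg15 by 0.66 ± 0.23 (adjusted p = 0.0966). Of the 67 measured pathway genes 11 were higher and 3 lower than sham on the bled side, where Socs3 led (0.94 ± 0.27), and 8 and 4 on the contralateral side. Other interferon targets moved on both sides: the chemokine genes Cxcl9 (0.72 ± 0.19 on the bled side and 0.83 ± 0.19 on the contralateral) and Cxcl10 (0.73 ± 0.17 and 0.75 ± 0.17), Ifitm3 (0.61 ± 0.10 and 0.51 ± 0.10) and the GTPase gene Ifi47 (0.56 ± 0.11 and 0.45 ± 0.11) rose, while Ciita fell by 0.40 ± 0.09 and 0.36 ± 0.09 on the log2 scale. No interferon gene was called in the nodes.

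These node calls depended on which arrays of sham and of bled rats were included. Dhx58, for example, was not called without the bled-side node of rat K1, K2, K5, K7, K8, K10 or K11 (adjusted p of 0.0556 to 0.0836). Without the sham arrays of rats C2 and C9, 3 members remained higher on the bled side, Ifit3, Oasl2 and Irf7. The other 5 then differed by 0.93 (Mx2, adjusted p = 0.0713), 0.75 (Oasl, 0.0758), 0.54 (Dhx58, 0.0954), 0.67 (Isg15, 0.119) and 0.18 (Gbp2, 0.152). There were 0 on the contralateral side, where Irf7 differed by 0.56 (adjusted p = 0.0603), Oasl2 by 0.49 (0.0863), Oasl by 0.63 (0.135) and Gbp2 by 0.16 (0.19). Leaving out C1, whose node was highest of its group in 31 of the 38 members, gave 11 and 8 members higher, and leaving out C2 alone gave 5 and 2. On the contralateral side, leaving out C9 or the node of rat K11 gave 2 members and leaving out C7 gave 1. Without the bled-side node of rat K11, 5 members were higher than sham. Adipocyte markers were also higher in the nodes of bled rats, 3 of 12 on the bled side and 6 on the contralateral, with summed levels of 11.7 to 13.2, 12.6 to 13.3 and 11.9 to 13.1 in the bled-side, contralateral and sham nodes. With the mean of these markers as a covariate 4 members were higher on the bled side, Mx2, Oasl, Irf7 and Oasl2, and 1 on the contralateral side, Irf7. Monocyte and macrophage markers were higher than sham in 4 of 12 on the bled side and 5 on the contralateral, with summed levels of 14.4 to 14.8, 14.3 to 14.8 and 14.3 to 14.6 in the same order. Markers of fibroblasts and synovial lining were higher in 2 and 5 of 12, with summed levels of 13.28 to 13.95, 13.44 to 13.87 and 12.98 to 13.58. The part of the latter 2 cell types in the node calls was not tested.

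**Figure D4:**
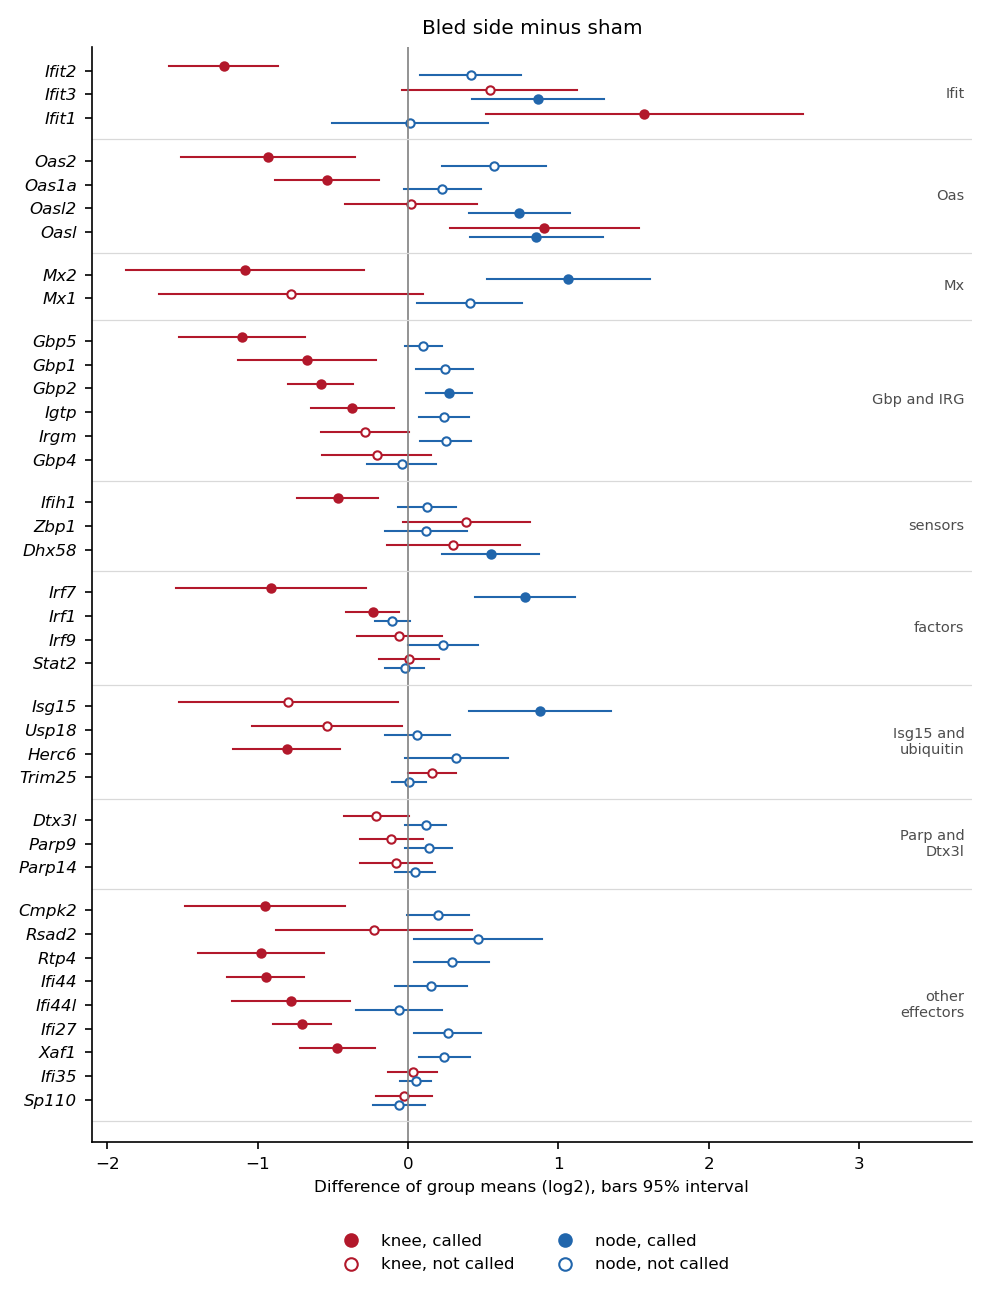
Difference of the bled side from sham (log2, horizontal axis) for the 38 members by sub-family, in the knee (red; 11 bled and 7 sham arrays) and in the node (blue; 11 bled-side and 9 sham arrays), with 95% intervals and filled points for calls. Red filled points lie mostly to the left (18 members, with Ifit1 and Oasl to the right) and the 8 blue filled points to the right.

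The differences in knee and node were compared directly. The side difference of the knee minus that of the node was below 0 in 24 members and above 0 in 1, Ifit1 (1.48 ± 0.52), among those called, with 12.4% of all probe sets called lower and 15.5% higher. Over genes with a symbol, 19.6% were called lower and 22.1% higher. Gbp5 led with −1.84 ± 0.19 (adjusted p = 3.88e-12), followed by Ifit2 (−1.77 ± 0.23), Mx2 (−1.60 ± 0.43), Irf7 (−1.54 ± 0.32), Oas2 and Mx1 (both −1.47) and Isg15 (−1.46 ± 0.39). All 24 were among the 26 that fell in the knee; the 2 others were Gbp4 (−0.30 ± 0.19) and Oas1a (−0.46 ± 0.19, adjusted p = 0.0671; 0.00971 with rat as a fixed replicate block). With that block Irf9 (adjusted p = 0.00132) and Oasl2 (adjusted p = 0.0238) were called as well, and Parp9 was not (adjusted p = 0.0538).

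The bled against sham difference of the knee minus that of the node was called below 0 in 22 members and above 0 in Ifit1 (1.56 ± 0.57), with 13.2% of all probe sets called lower and 18% higher. Over genes with a symbol, 19.4% were called lower and 24.4% higher. Mx2, Irf7 and Isg15 stood first: Mx2 had a knee difference of −1.09 and a node difference of 1.07, which makes −2.15 ± 0.47 (adjusted p = 0.000191). Irf7 gave −1.69 ± 0.35 and Isg15 −1.68 ± 0.43. Without the sham arrays of knee C5 and nodes C2 and C9, 18 members were below 0 and none above it, with Ifit1 at 1.35 (adjusted p = 0.0929), Dtx3l at −0.31 (0.0644), Oasl2 at −0.54 (0.15), Mx1 at −1.0 (0.119) and Ifi44l at −0.64 (0.0521) no longer called. Dtx3l and Oasl2 were not called with each array centred on its median either (adjusted p = 0.0739 and 0.0517). Mx2, Irf7, Isg15 and Gbp2 (−0.86 ± 0.13) were the members that fell between bled and contralateral knee and rose between bled-side and sham node. With sham as the reference in both tissues this held for Mx2, Irf7 and Gbp2, since Isg15 was not called against sham knees. The node calls of Mx2, Isg15 and Gbp2 were lost without the sham arrays that stood apart. The knee calls against sham of Mx2 and Irf7 were lost without the sham knee of rat C3 (adjusted p = 0.0764 and 0.0758). That of Mx2 was also lost without the sham knee of rat C5 (0.0637) and with array weights (0.075). Oasl, higher than sham in both tissues, gave 0.05 ± 0.38, with a 95% interval of −0.71 to 0.81. The contralateral against sham difference was called different between the tissues in none of the members (limma; 3 were higher in the knee at an unadjusted p under 0.05), with 1.14% of all probe sets called higher and 0.891% lower.

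Within every group the members varied with the array they were measured on. In the sham knees the median over the 38 genes of an array's deviation from its group mean ran from −0.45 (C7) to 0.55 (C3), and in the sham nodes from −0.38 (C9) to 0.38 (C1); the sham rat that was highest in the knee was not the one that was highest in the node. In the contralateral knees it ran from −0.46 (K8) to 0.33 (K10) and in the bled knees from −0.32 (K2) to 0.36 (K1). By this median rats K1, K5, K6, K9 and K10 were above and K3, K4, K8 and K11 below their group's mean in both knees, while K2 was above it in the contralateral knee (0.25) and lowest in the bled one. The median SD of the 38 genes was 0.34 in bled, 0.38 in contralateral and 0.38 in sham knees, and 0.24, 0.27 and 0.26 in the matching nodes.

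**Figure D5:**
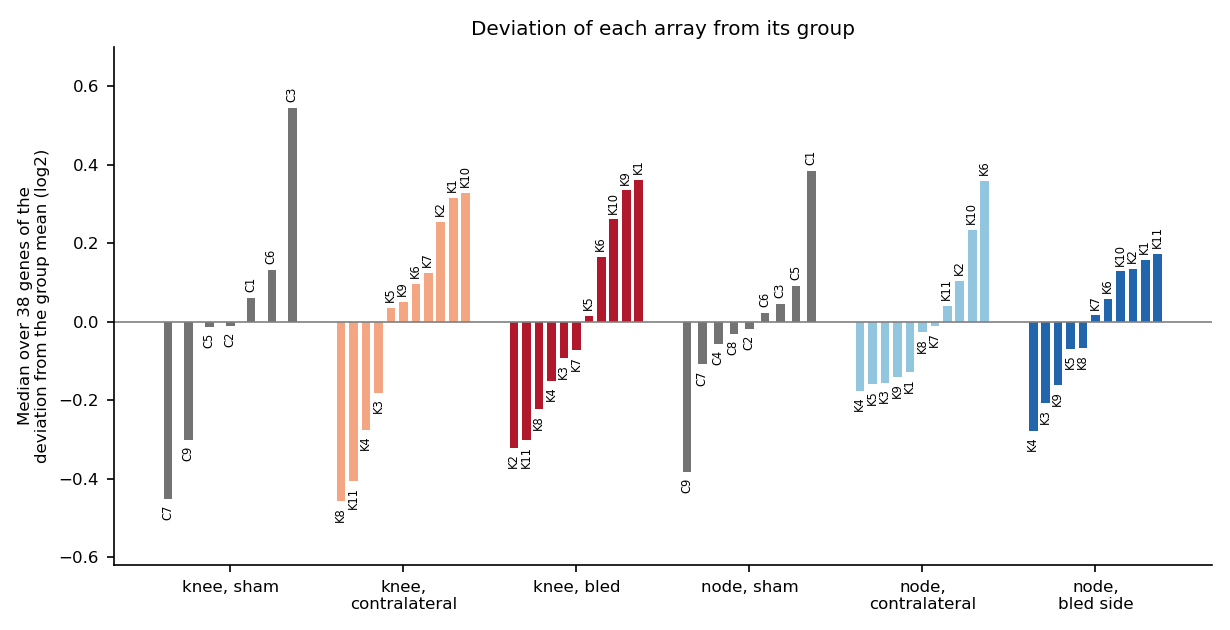
Median over the 38 members of the deviation of each array from its group mean (log2, vertical axis), with arrays ordered within each of the 6 groups and marked by rat. Sham knee C3 (0.55) and sham node C1 (0.38) stand highest in their groups, and sham knee C7 (−0.45) and sham node C9 (−0.38) lowest.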

How the data were processed

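Gene expression was measured on 60 Affymetrix arrays, 1 for each tissue sample. The deposited values are log2 RMA expression per probe set, and the submitters' processing notes name Affymetrix Expression Console (1.4.46) as the software; whether knee and node arrays were normalized together, and any scan batch, are not given in the sources used here. Of the 36685 probe sets 18511 had 1 gene symbol in the platform annotation, 575 had several and 17599 were not listed there; gene names came from the first kind.

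Each tissue was fitted separately with its 3 groups (29 knee and 31 node arrays) in limma 3.58.1 (R 4.3.3, data.table version 1.17.8), with moderated tests on the log2 values and Benjamini-Hochberg adjustment over all probe sets. Differences between tissues were contrasts in a fit of all 60 arrays. Figures and counts used Python 3.11.15, numpy 2.4.6, pandas 2.3.3 and matplotlib 3.10.9. The fit was tested on simulated data. The array number of each group limits the precision.

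Bled and contralateral samples with the same number came from the same rat, per the labels. Their deviations from the group means correlated by −0.10 to 0.21 in the knee (mean 0.07, above 0.1 in 4 of 11 rats) and by 0.12 to 0.32 in the node (mean 0.23). The main fits had no block, and fits with rat as a fixed or random replicate block were alternatives.

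The members, the lists of pathway genes and cell type markers and the tests were chosen with earlier results of these data known, so counts over them are descriptions. Group values were given for the called members with the lowest and highest differences in each comparison and the member with the largest difference of each sub-family; in pathway lists up to 4 called genes per comparison were named by size of difference. Other genes were named after their values were seen.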

Additional observations from a re-analysis of the deposited data

Results flagged for a closer look

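The test for a far array was run on the sham knee and sham node groups of 14 members, 28 in all. The groups of 11 arrays were not tested. In 5 of the 28, 1 array lay far from the rest of its group, where chance alone flags about 1 in 20 independent groups. The members share arrays and vary together, so the 28 are not independent. The sham node of rat C1 was the highest for Dhx58 (8.1), Mx2 (9.23) and Oas2 (6.7), the sham knee of rat C3 was the highest for Dtx3l (8.64), and the sham node of rat C9 was the lowest for Ifit2 (6.89).

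The 14 members described in full were picked partly by their calls in these same comparisons, so the counts below were partly fixed by that choice. By the test of the difference itself, 27.8% of all probe sets differed between the tissues in their side difference. Among the 14, the side difference in the knee differed from that in the node for 11. It was lower in the knee for Gbp5 (−1.84), Ifit2 (−1.77), Mx2 (−1.60), Irf7 (−1.54), Oas2 (−1.47), Isg15 (−1.46), Cmpk2 (−1.34), Gbp2 (−0.81), Ifih1 (−0.64) and Dtx3l (−0.56), and higher for Ifit1 (1.48). The difference of the bled side from sham differed between the tissues for 31.3% of all probe sets and for 12 of the 14 members. These were Mx2 (−2.15), Irf7 (−1.69), Isg15 (−1.68), Ifit2 (−1.64), Oas2 (−1.50), Gbp5 (−1.21), Cmpk2 (−1.15), Gbp2 (−0.86), Oasl2 (−0.72), Ifih1 (−0.59), Dtx3l (−0.33) and, in the other direction, Ifit1 (1.56). Without the sham arrays that stood apart, Oasl2 (−0.54, adjusted p = 0.15), Dtx3l (−0.31, adjusted p = 0.0644) and Ifit1 (1.35, adjusted p = 0.0929) were no longer called different in this last comparison.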

How the results depend on the processing

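No called difference of a member changed direction in any setting tried; over called members, 45 of the differences recomputed in other settings lost their call and 786 kept it, and 92 and 1643 when each array was left out in turn. The single member higher in bled than in contralateral knees was not called with dim probe sets left out or with muscle markers as a covariate (0 in both), and 24 to 27 members were lower when 1 array was left out. Against sham knees the count of members higher went from 2 to 1 without dim probe sets and ran from 1 to 4, and that of members lower from 13 to 20, over the arrays left out. Contralateral against sham knees gave 1 member higher, Gbp5, with 1 probe set per gene, without dim probe sets or with each array centred on its median, and 0 to 2 over the arrays left out; it was 1 without the bled knee of K2 or the contralateral knee of K11. Bled-side against sham nodes gave 5 members with array weights or with only the 2 groups compared, 4 with adipocyte markers as a covariate, 3 without the arrays that stood apart, and 5 to 11 over the arrays left out. Contralateral against sham nodes gave 7 with 1 probe set per gene or without dim probe sets, 1 with adipocyte markers, 0 without the arrays that stood apart, and 1 to 8 over the arrays left out, with 2 when the contralateral node of K6, K7, K8 or K11 or the sham node of C2, C6, C8 or C9 was left out. Ifit1 being above 0 in the bled against sham difference of knee minus node was lost (0 members) without the arrays that stood apart. The cause of these moves was not tested, apart from the fewer probe sets or arrays in some settings. The smallest called falls in the knee depended on the setting: Gbp4 was not called with centred arrays (adjusted p = 0.079) nor Parp9 with array weights (adjusted p = 0.0519). With rat as a fixed replicate block 28 members were lower in bled than in contralateral knees and 26 in the knee minus node difference, and with a random replicate block 26 and 24, with 9 and 5 higher than sham in bled-side and contralateral nodes; beyond the members named beside the results, the block changed no call there. Dim probe sets near the array background, such as that of Ifit1, can have compressed differences, which was not tested here, and 5 members were not measured.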
